A study of Mus musculus with 2 samples.

Results

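Probes carrying the binding site of the AP-1 transcription factors were compared with other probes in a promoter-array study of CREM binding in the adult mouse testis. A probe was taken when its spotted sequence held the 7-base AP-1 consensus, TGACTCA on one strand and TGAGTCA on the other, and held no half-site of the cAMP response element (the CRE half-site, TGACG or CGTCA). This gave 4513 of 473664 probes with a genome position (0.953%), of which 2295 of 236896 were on the first array and 2218 of 236768 on the second. A further 71 probes held both motifs and were left out. Both hybridisations set DNA precipitated with an antibody against CREM (sc-440, Santa Cruz, labelled with Cy5) against DNA precipitated with goat IgG (labelled with Cy3). Both precipitates came from adult male C57BL/6 mice, and the protocol describes pooled, formaldehyde-fixed germ cells of 5 testes. The 2 arrays hold different probes, each was hybridised once and the dyes were not swapped, so that dye and antibody cannot be told apart, no p-value is given and each array is described on its own.

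AP-1 is a dimer of basic leucine zipper proteins of the FOS, JUN and related families, and its site is also called the TPA response element. CREM belongs to the same class of protein, has forms that activate and forms that repress transcription, and is known in the testis as a regulator of the spermatid programme. The palindromic CRE that CREM binds differs from the AP-1 site by 1 additional base in its centre, which makes the AP-1 probes a close comparison for the CRE probes of the same arrays. FOS and JUN proteins were not precipitated here, so the values describe CREM over IgG signal at these sequences and say nothing of AP-1 occupancy.

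The probes printed here are among those with the highest and the lowest CREM over IgG ratios, together with probes of genes from the AP-1 and spermatid lists, so that the site can be seen in its surroundings. Letters run 5′ to 3′ as spotted, capitals mark the AP-1 site, and positions are those the array files give on mm9; the genomic strand is not given in the sources used here. The files tie each probe to a gene name but, for most probes, not to an exon, an intron or a start site.
Dnajb6, chr5:30062137-30062191: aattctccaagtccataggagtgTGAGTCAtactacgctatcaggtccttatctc
Rpl24, chr16:55973584-55973643: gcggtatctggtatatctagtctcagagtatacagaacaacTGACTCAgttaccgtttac
Wdr4, chr17:31649648-31649699: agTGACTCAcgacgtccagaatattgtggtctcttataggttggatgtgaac
Orc5, chr5:22056693-22056752: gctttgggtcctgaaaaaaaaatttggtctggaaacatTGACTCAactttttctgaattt
Tinf2, chr14:56299380-56299434: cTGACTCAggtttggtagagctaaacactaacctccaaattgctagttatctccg
Odf1, chr15:38149570-38149623: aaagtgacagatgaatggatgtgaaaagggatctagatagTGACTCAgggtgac
Tnp1, chr1:73063925-73063984: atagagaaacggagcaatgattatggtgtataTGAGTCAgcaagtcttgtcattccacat
Ubqln1, chr13:58316780-58316824: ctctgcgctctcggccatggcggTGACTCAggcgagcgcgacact
Arrdc1, chr2:24790606-24790650: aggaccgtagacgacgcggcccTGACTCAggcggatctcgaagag
Srxn1, chr2:151931205-151931249: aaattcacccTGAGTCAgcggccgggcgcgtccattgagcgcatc
Ezr, chr17:6987118-6987162: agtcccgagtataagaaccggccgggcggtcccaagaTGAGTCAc
Mafg, chr11:120494397-120494441: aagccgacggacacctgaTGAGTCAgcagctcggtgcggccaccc
Mafg, chr11:120494263-120494307: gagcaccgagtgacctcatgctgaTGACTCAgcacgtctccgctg
The first 7 have positive ratios and GC contents of 33.3% to 44.2%. The last 6 have negative ratios, and their GC contents of 60.0% to 68.9% come with several CpG dinucleotides each.

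After leaving out 93 AP-1 probes on the first array and 110 on the second that Feature Extraction called dim in both channels, 2202 and 2108 remained. Both channels were well above background in 1731 (78.6%) and 1718 (81.5%) of these, against 80.2% and 81.9% of all probes used. The AP-1 probes were 45 to 60 bases long. Their GC content was 41.7 ± 6.54% on the first array and 42.1 ± 7.16% on the second (SD over probes), and all probes had 42.4 ± 8.53% and 42.4 ± 8.58%. They were poorer in CpG: 67.5% and 65.9% of AP-1 probes had none, against 57.4% and 56.5% of all probes. The ratio on these arrays moves with GC content, as given below by GC class, so each AP-1 value was set against probes that hold neither motif, matched in bins of 4% GC and in CpG number.

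AP-1 probes lay at the level of their matched probes on both arrays. The centred log2 ratio of CREM over IgG had a median of 0.021 over the AP-1 probes of the first array, against 0.028 in matched probes, a difference of -0.0066 (95% interval -0.031 to 0.010). On the second array the AP-1 median was 0.020 and the matched median 0.012, a difference of 0.0079 (-0.019 to 0.041). These intervals, and all others here, cover counting error over probes only, and probes of 1 hybridisation are not replicates. The matched median is the mean of the medians of the GC and CpG classes, weighted by the AP-1 probes in each. Pooled with the same weights, the matched probes had medians of 0.030 and 0.017.

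The spread was similar, with differences in the lower tail that ran opposite ways on the 2 arrays. On the first array the 5th, 25th, 75th and 95th percentiles of the AP-1 probes were -0.94, -0.33, 0.44 and 1.25, and those of the matched probes -0.88, -0.32, 0.44 and 1.31. For the second array they were -0.86, -0.33, 0.45 and 1.37 in AP-1 probes and -0.96, -0.34, 0.44 and 1.37 in matched probes. Within 0.5 of 0 on the log2 scale lay 60.9% and 61.6% of the AP-1 probes, and 1144 (51.95%) and 1088 (51.6%) were above 0. The lowest and highest AP-1 values were -2.27 and 3.36 on the first array and -3.21 and 3.72 on the second.

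**Figure D1:**
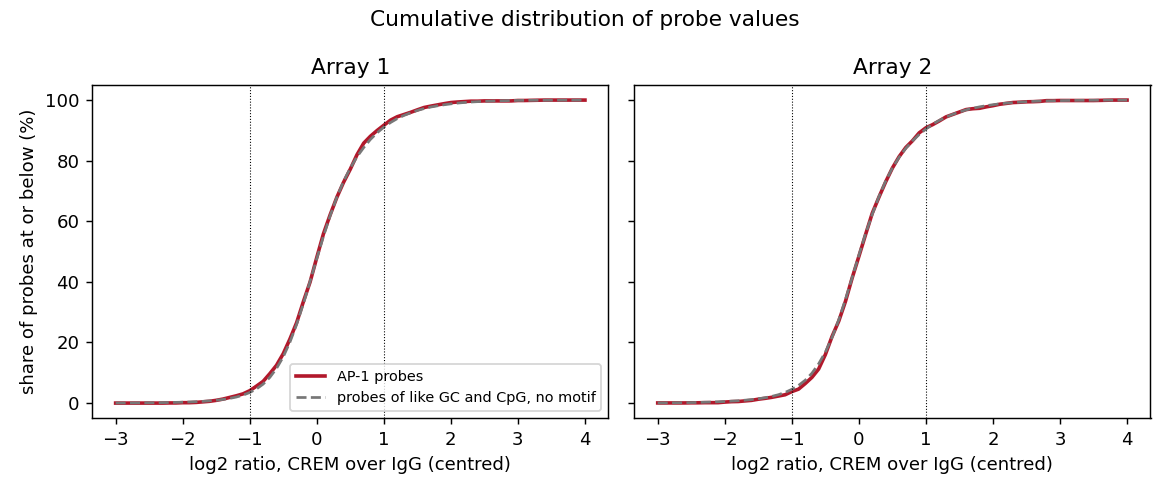
Cumulative share of probes (vertical axis, percent) at or below each centred log2 ratio of CREM over IgG (horizontal axis) for AP-1 probes (solid red) and probes of like GC content and CpG number holding neither motif (dashed grey), 1 panel per array. Dotted lines mark log2 ratios of -1 and 1, and the 2 curves run together on both arrays, with 8.31% and 9.16% of AP-1 probes at 1 or more.

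A log2 ratio of 1 or more, a 2-fold higher CREM signal, was reached by 183 AP-1 probes of the first array (8.31%, 95% Wilson interval 7.23 to 9.54%). The matched share was 8.96%, and 9.05% of all probes reached it. The second array had 193 AP-1 probes past it (9.16%, 7.998 to 10.5%), against 9.56% of matched probes and 9.85% of all probes. The share of AP-1 probes was thus 0.928 times the matched share (0.807 to 1.06) and 0.957 times (0.836 to 1.09), and both intervals hold 1. On the IgG side, a log2 ratio of -1 or less was found in 90 AP-1 probes (4.09%, 3.34 to 5.00%) against 3.49% of matched probes on the first array. The second array had 80 (3.795%, 3.06 to 4.70%) against 4.54%. Over all probes these IgG-side shares were 6.47% and 6.57%, higher than in AP-1 probes or their matched probes, both of which hold fewer CpG dinucleotides. A 4-fold higher CREM signal was seen in 18 AP-1 probes (0.817%, 0.518 to 1.29%) against 1.25% of matched probes on the first array. The second array had 39 (1.85%, 1.36 to 2.52%) against 1.52%, and the 2 arrays thus lay on opposite sides of their matched shares.

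Most AP-1 probes past 1 had a dim IgG spot. The IgG channel was not well above background in 67.2% of the 183 probes and 64.2% of the 193. The ratio of such a probe rests on a weak IgG signal and is uncertain. The IgG spot was dim as well in 59.6% and 57.4% of probes past 1 that held neither motif. Of AP-1 probes with both channels bright, 60 (3.47%) and 69 (4.02%) reached 1 with the centring over all probes used, against 4.56% and 5.00% of matched probes. Of those bright in 1 channel only, 26.1% and 31.8% did, against 26.5% and 30.6%. The AP-1 probes were also slightly dimmer than their matched probes. Their median CREM signal was 699 and 751 units, against 791 and 792, and their median IgG signal 698 and 736 units, against 763 and 770.

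The same arrays gave higher CREM over IgG ratios at the CRE. Probes with the full palindromic CRE reached 1 in 14.2% of cases (9.37 to 20.9%, n = 141) against 7.19% of their own matched probes on the first array, a ratio of 1.97. The share on the second array was 19.1% (13.0 to 27.3%, n = 115) against 8.14%, a ratio of 2.35. Probes with a half-site only lay between, with 10.97% (10.1 to 11.9%) against 9.72% and 11.7% (10.8 to 12.7%) against 10.8%. The median of full CRE probes was higher than the mean of the matched class medians by 0.38 (0.13 to 0.62) and 0.29 (0.019 to 0.56) on the log2 scale. It was -0.13 and -0.16, against pooled matched medians of -0.41 and -0.32. The interval of the second array is therefore not read as above 0. Against the mean of class medians, half-site probes were higher by 0.12 (0.089 to 0.14) and 0.13 (0.10 to 0.15). Their medians were -0.093 and -0.047, against pooled matched medians of -0.127 and -0.079. The size of these differences thus depended on the reference. The AP-1 intervals against the mean of class medians end at 0.010 and 0.041. No intervals were made against the pooled medians, so the intervals of the kinds of probe are not set against each other. Of the probes that held an AP-1 site and a half-site together, 4 of 37 and 3 of 32 reached 1 (10.8%, 4.29 to 24.7%, and 9.38%, 3.24 to 24.2%), against 10.6% and 13.0% of their matched probes. By channel, full CRE probes of the first array had a median CREM signal of 730 units, against 882 in matched probes, and a median IgG signal of 697 units, against 1223. On the second array their CREM signal was 898 units, against 833, and their IgG signal 951 units, against 1097.

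**Figure D2:**
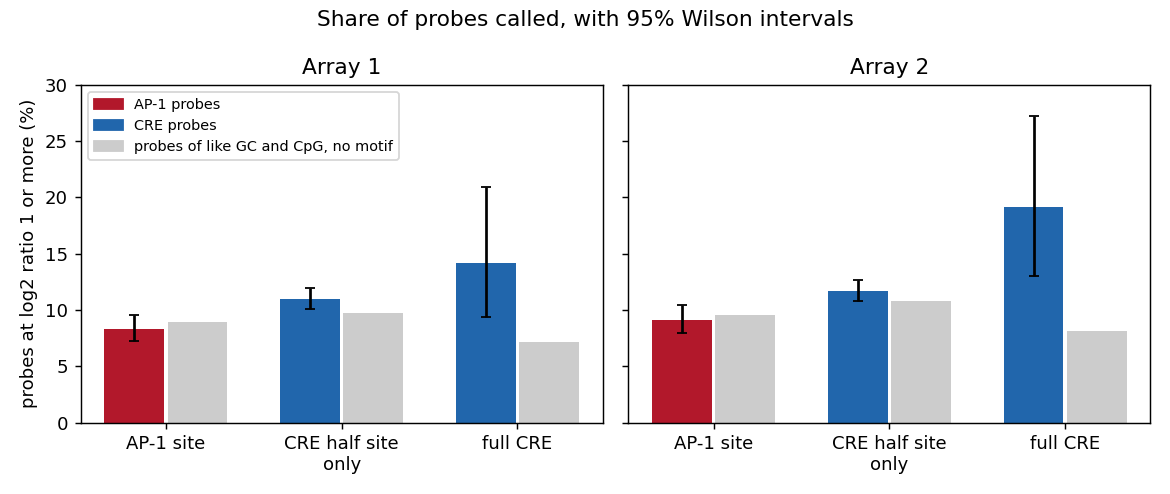
Share of probes at a log2 ratio of 1 or more (vertical axis, percent) for probes with an AP-1 site (red), with a CRE half-site only and with the full CRE (blue), each beside its own probes of like GC content and CpG number without either motif (grey), 1 panel per array. Error bars are 95% Wilson intervals over probes; AP-1 bars of 8.31% and 9.16% stand beside matched bars of 8.96% and 9.56%, and full CRE bars of 14.2% and 19.1% beside 7.19% and 8.14%.

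Precipitated fragments reach past 1 probe, so neighbouring probes, whose sequences the selection did not use, were read as well. The median of 3 consecutive probes with the AP-1 probe in the middle reached 1 in 88 of 1667 windows (5.28%, 4.30 to 6.46%) on the first array. Matched windows did so in 5.51% of cases and all windows in 5.66%. The second array had 81 of 1612 (5.02%, 4.06 to 6.20%), against 6.03% of matched and 6.32% of all windows. Windows at -1 or less numbered 25 (1.4997%) and 39 (2.42%), against 2.01% and 2.79% of matched windows and 4.61% and 4.51% of all windows. Full CRE windows reached 1 in 17.1% and 22.3% of cases, against 5.45% and 6.29% of theirs.

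The probes within 500 bp of an AP-1 probe that held neither motif differed from the neighbours of matched probes by 0.017 (-0.0074 to 0.033) on the first array. There the difference was 0.0059 (0.00031 to 0.013) under normexp background correction, an interval narrowly above 0. With a reach of 300 bp it was -0.0040, and with the GC trend removed -0.0011, and both intervals took in 0. On the second array the AP-1 neighbours differed by 0.037 (0.0087 to 0.064), an interval above 0. Under normexp background correction, GC trend removal or a reach of 300 bp the difference was 0.011 to 0.033. Each interval of these alternatives took in 0. Around full CRE probes the same measure was 0.43 and 0.58. By distance, in 5 bins out to 1500 bp, the AP-1 neighbours differed by -0.0073 to 0.0048 and by -0.0045 to 0.042, and each of these intervals took in 0. The full CRE neighbours differed by 0.31 to 0.50 and by 0.28 to 0.64 over the same bins.

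**Figure D3:**
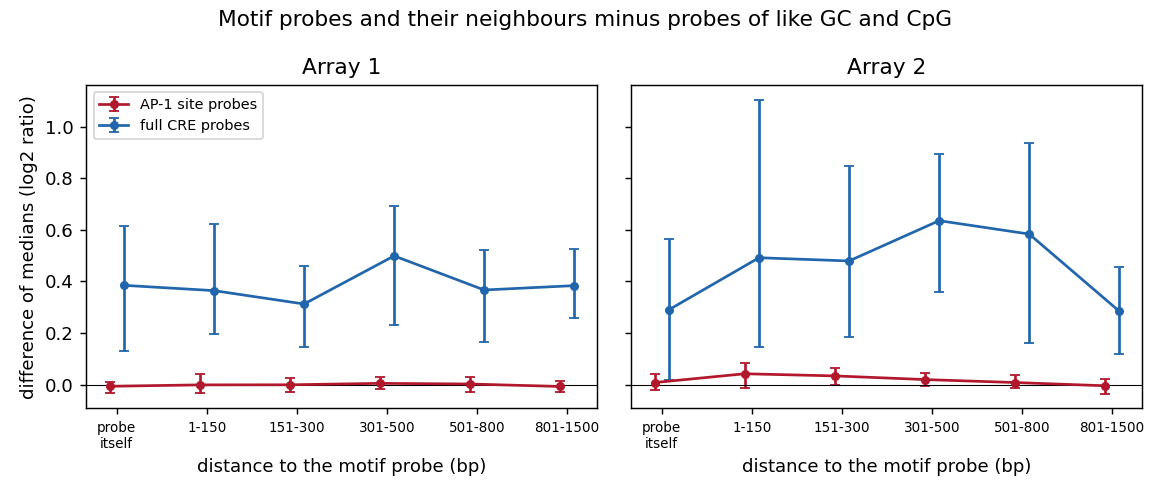
Difference of medians (vertical axis, log2 ratio) between motif probes or their neighbours and probes of like GC content and CpG number, by distance from the motif probe (horizontal axis, bp), for AP-1 probes (red) and full CRE probes (blue), 1 panel per array. Differences are taken from the mean of the medians of the GC and CpG classes. Error bars are 95% intervals over probes. The red points stay between -0.0073 and 0.042 and the blue points between 0.28 and 0.64.

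Whether the exact 7 letters matter for the value was read from probes carrying the site with 1 base changed. The 18 changed sites that are neither an AP-1 site nor hold a half-site gave shares past 1 that differed from their matched shares by -1.74 to 1.63 percentage points on the first array and -1.84 to 2.34 on the second. The AP-1 site, at -0.649 and -0.408 points, lay inside both ranges. The lowest value on both arrays belonged to TGTGTCA. It was past 1 in 7.47% of probes (6.45 to 8.64%) against 9.21% matched on the first array, and in 8.41% (7.28 to 9.69%) against 10.3% on the second.

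**Figure D4:**
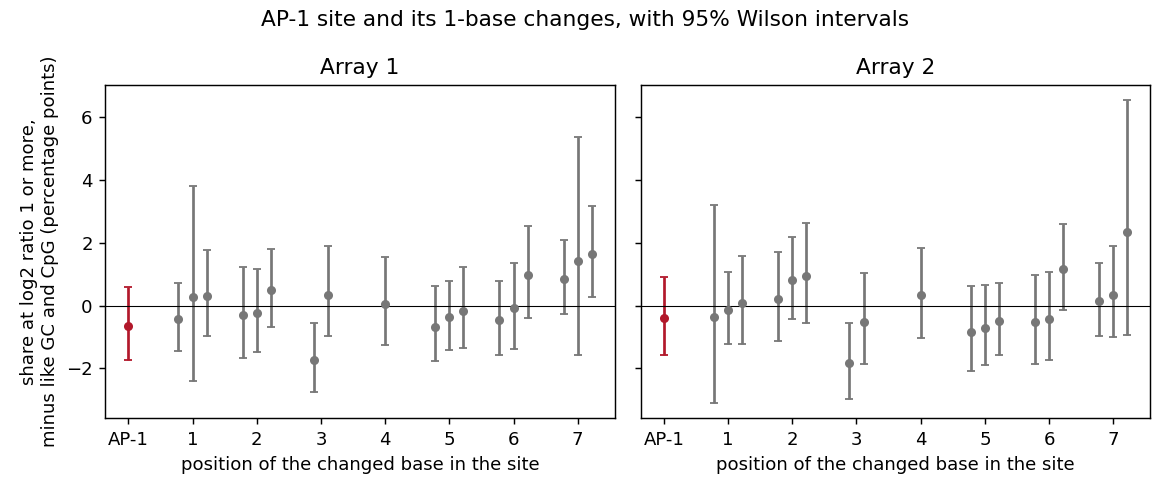
Share of probes at a log2 ratio of 1 or more minus that of probes of like GC content and CpG number (vertical axis, percentage points) for the AP-1 site (red, left) and 18 sites with 1 base changed (grey), placed by the position of the change (horizontal axis, counted from the 5′ end of TGAGTCA), 1 panel per array. Error bars are 95% Wilson intervals; the AP-1 points at -0.649 and -0.408 lie within the range of the changed sites.

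Among the AP-1 probes themselves, the share past 1 was lower at high GC content. Under 36% GC, 12.2% and 11.8% reached 1, against 12.3% and 12.7% of matched probes. From 36 to 44% GC it was 10.6% and 12.0%, against 10.9% and 11.9%. From 44 to 52% GC it was 3.46% and 4.88%, against 5.06% and 5.73%. At 52% or more it was 0 of 165 and 0 of 201 AP-1 probes, which allows shares of up to 1.82% and 1.49%, against 0.894% and 1.45%. The decline above 44% GC was seen in matched probes as well. The AP-1 probes past 1 had a mean GC content of 38.7% and 39.2%, and those at -1 or less 47.7% and 53.5%.

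The 2 spotted orientations of the site differed slightly. Probes spotted with TGAGTCA reached 1 in 104 of 1072 cases (9.70%, 8.07 to 11.6%) and those with TGACTCA in 78 of 1123 (6.95%, 5.60 to 8.58%) on the first array, a difference of 2.76 percentage points (0.444 to 5.10). On the second array it was 110 of 1083 (10.2%, 8.50 to 12.1%) against 83 of 1021 (8.13%, 6.61 to 9.97%), a difference of 2.03 points (-0.449 to 4.50). The neighbours within 500 bp, which are not tied to the spotted strand of the AP-1 probe, differed by -0.182 points (-1.89 to 1.53) and 0.615 points (-1.25 to 2.47). With normexp background correction the difference of the first array was -0.293 points, so its direction does not hold. Probes without an AP-1 site differed by orientation too: over the 18 sites with 1 base changed, the orientation read like TGAGTCA had the higher share in 12 on the first array (-2.03 to 6.35 points) and in 15 on the second (-0.310 to 9.09 points).

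The bases beside the site separated the probes little. Over the 16 pairs of bases before and after TGAGTCA, with 76 to 191 probes each, the share past 1 differed from matched probes by -4.28 to 4.30 points on the first array and by -3.35 to 2.12 on the second. The site right after TGC, as in the elements bound by NF-E2 and MAF proteins, was past 1 in 11 of 88 and 5 of 87 probes (12.5% and 5.75%, against 7.09% and 7.84% of matched probes), above them on the first array and below on the second. The site between A and T was at -1 or less in 12 of 109 probes of the first array (11.01%, 6.41 to 18.3%) against 1.98% of matched probes. The second array had 3 of 122 (2.46%, 0.840 to 6.98%) against 2.80%, so the excess was seen on 1 array only. A second AP-1 site on the same probe was rare, with 16 and 9 probes, of which 2 and 0 reached 1; the 0 of 9 allows a share of up to 33.3%.

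AP-1 probes near a CRE half-site on another probe were read separately. A half-site lay on a probe within 500 bp of 128 and 136 AP-1 probes (5.81% and 6.45%). The shares were 7.14% and 7.33% of all probes with neither motif, which were not matched for GC content or CpG number here. The part of composition in this difference was not tested. Of the AP-1 probes beside a half-site, 16.4% (10.99 to 23.8%) and 11.8% (7.37 to 18.3%) reached 1. Matched probes beside a half-site did so in 14.0% and 14.2% of cases. AP-1 probes without one nearby reached 1 in 7.81% and 8.98% of cases, against 8.61% and 9.20%. A full CRE lay within 500 bp of only 1 and 4 AP-1 probes, too few to describe as a group.

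Clustered AP-1 sites gave no shared direction on the 2 arrays. With another AP-1 probe within 500 bp, 6.15% (2.42 to 14.8%) against 7.78% reached 1 on the first array, and 16.2% (9.28 to 26.7%) against 8.95% on the second. The files gave a distance to a gene start for 121 AP-1 probes only. Among probes with a distance and no CRE half-site, 12 of 2041 within 500 bp of a start held an AP-1 site (0.588%, 0.337 to 1.02%). It was 60 of 3976 from 500 to 2000 bp (1.51%, 1.17 to 1.94%) and 49 of 4781 beyond (1.02%, 0.776 to 1.35%). These shares were not matched for GC content or CpG number. Within 500 bp of a start, 2 of 7 AP-1 probes on the first array and 3 of 5 on the second reached 1. The comparison probes at that distance did so in 10.66% and 10.90% of cases, and these numbers are too small to read as a difference. Chromosome by chromosome, over those with at least 20 AP-1 probes, the AP-1 medians lay between -0.047 and 0.12 on the first array and between -0.13 and 0.097 on the second.

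High values of AP-1 probes were shared with the neighbouring probes in some places and not in others. Among AP-1 probes past 1 with a window, the window was past 1 as well in 75 of 155 (48.4%) and 66 of 150. For probes past 1 that held neither motif it was 50.1% and 51.6%. The highest AP-1 probe of the second array lay by Rpl24, which encodes a protein of the large ribosomal subunit. Its CREM signal was 6579 units and its IgG signal 494 units, a log2 ratio of 3.72, and the next probes 216 bp and 159 bp away had 2.68 and 2.81. All 3 were well above background in both channels. The mean of the probes within 500 bp that held neither motif was lower, at 1.15. On the first array, leaving aside probes with a dim channel, the highest lay by Dnajb6, which encodes a co-chaperone of the HSP40 family. It had 7881 units of CREM and 830 units of IgG signal, a log2 ratio of 3.22, next to probes with 2.50 and 1.30. The mean within 500 bp, taken in the same way, was 1.18. A CRE half-site lay on a probe 368 bp away, whereas the nearest half-site to the Rpl24 probe was 35483 bp away.

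Further high probes had high neighbours. By Orc5, a subunit of the origin recognition complex, the AP-1 probe had 2.17 and its neighbours 2.20 and 1.87. By Wdr4, a partner of a tRNA methyltransferase, it had 2.48 and its neighbours 2.36 and 2.09. By Chchd6, a protein of the mitochondrial inner membrane, the values were 2.44 for the AP-1 probe and 2.14 and 2.00 for its neighbours. The nearest half-site was on a probe 1470 bp from the Orc5 probe, 2038 bp from the Wdr4 probe and 147267 bp from the Chchd6 probe. Under normexp background correction the 3 AP-1 probes had 1.02, 2.55 and 1.18 in the same order. The means of the probes within 500 bp that held neither motif were 1.93, 1.26 and 0.98, again in this order. The probe by Tinf2, a telomere protein, had 24800 units of CREM and 5848 units of IgG signal, a log2 ratio of 2.06, and neighbours at 1.12 and 2.23. By Dhx36, an RNA and DNA helicase, the AP-1 probe had 2.17 and its neighbours 1.70 and 2.35, the higher of them with a dim channel. A full CRE lay on a probe 722 bp away, and under normexp the AP-1 probe had 0.47. The mean within 500 bp was 1.98 by Tinf2 and 1.05 by Dhx36. The remaining highest probes lay by Pfdn2 (2.05), Magohb (2.01) and Zmym6 (1.96) on the first array and by Cndp1 (2.78), Ankrd54 (2.29) and Scamp2 (2.11) on the second. Under normexp these had 0.85, 2.22 and 0.81 on the first array, so that Pfdn2 and Zmym6 fell below 1, and 2.38, 1.22 and 1.35 on the second.

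Other high AP-1 probes had lower or mixed neighbours. By Zer1, a substrate receptor of a ubiquitin ligase, the AP-1 probe had 2.26, but the next probes had -0.89 and 1.23. By Rap2a, a small GTPase, the AP-1 probe had 2.66 and its next probes 1.09 and -1.17; the mean of the probes within 500 bp that held neither motif was 3.98, and a CRE half-site lay on a probe 126 bp away. By Slit1, an axon guidance ligand, it had 2.73 and the next probe, on 1 side only, 0.59. In contrast, the windows by Ttc1, Slc25a3 and Pbdc1 were among the highest around AP-1 probes with both channels bright on the second array, at 2.35, 2.31 and 2.21, although the AP-1 probes in their middle had 0.93, 0.89 and 1.31; both neighbours by Slc25a3 and by Pbdc1, and 1 of those by Ttc1, had a dim channel. The window by B4galt3, at 1.80, was the sixth of the first array by the same criterion.

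**Figure D5:**
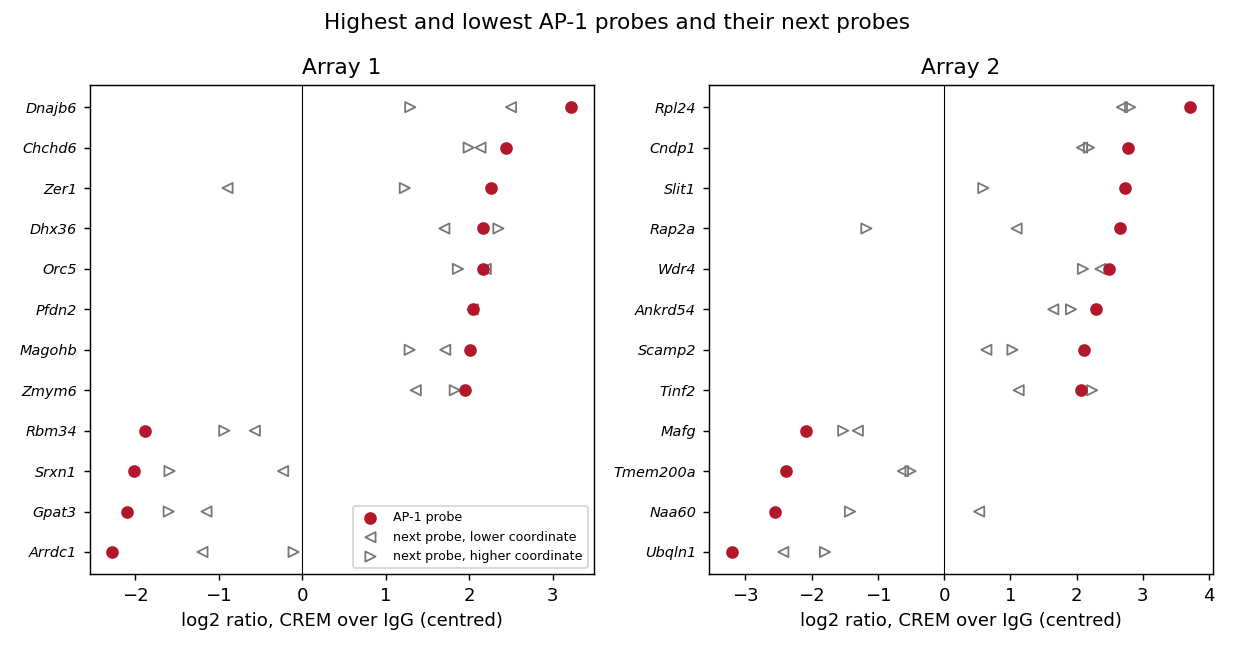
Centred log2 ratio of CREM over IgG (horizontal axis) of the 8 highest and 4 lowest AP-1 probes per array among those well above background in both channels (red points, 1 row per gene), with the next probe on each side (open triangles, where 1 lies within 500 bp). Neighbours of the Rpl24, Orc5 and Wdr4 probes are high as well, whereas those by Zer1 and Rap2a lie on both sides of 0.

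The lowest AP-1 probes were mostly rich in GC. The lowest of all lay by Ubqln1, which encodes a proteasome shuttle protein, with 402 units of CREM and 3663 units of IgG signal, a log2 ratio of -3.21, and neighbours at -2.43 and -1.80. Its GC content was 68.9%, with 6 CpG dinucleotides. On the first array the lowest lay by Arrdc1, an arrestin-domain protein, at -2.27 with neighbours at -1.19 and -0.10, followed by Gpat3 (-2.095), Srxn1 (-2.02) and Rbm34 (-1.88). On the second array Naa60 (-2.55), Tmem200a (-2.39) and Mafg (-2.09) followed. Of these 8 probes, those by Rbm34 and Naa60 had GC contents of 36.7% and 44.4%, and the other 6 had 57.8% or more. After removal of the GC trend the 8 values were between -2.59 and -0.96, and under normexp background correction between -1.85 and -0.14.

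Genes of the AP-1 family and of related basic leucine zipper proteins had 4 AP-1 probes on the first array, with a median of -0.013, and 7 on the second, with a median of 0.088. Of these, 1 reached 1, by Nfe2l1, whose IgG spot was not well above background, and 2 were at -1 or less. All probes of these genes reached 1 in 9.70% and 10.75% of cases. The probes at -1 or less both lay by Mafg, a small MAF protein that dimerises with NRF2 and related factors, and both held the site next to TGC. They had log2 ratios of -2.09 (1610 units of CREM and 6772 units of IgG signal) and -1.30 (526 and 1281 units), lay 134 bp apart and had GC contents of 66.7% and 60.0%. The other members with both channels well above background lay between -0.73, by Fosl1, and 0.34, by Maff. Known targets of AP-1, NRF2 and MAF in somatic cells had 5 and 6, with medians of -0.18 and -0.42, none at 1 or more and 2 at -1 or less. These 2 lay by Srxn1, the antioxidant enzyme sulfiredoxin, at -2.02, and by Ezr, the membrane linker ezrin, at -1.88. Hmox1, Plau and Timp1, further classical targets, had -0.18, -0.11 and 0.20. The 0 of 11 at 1 or more allows a share of up to 27.3%, and all probes of these genes reached 1 in 6.12% and 8.23% of cases. At -1 or less lay 6.47% and 6.57% of all probes of the arrays. Among AP-1 probes of 52% GC or more it was 18.8% and 23.4%, against 19.4% and 22.9% of matched probes. The probes at -1 or less by Mafg, Srxn1 and Ezr had GC contents of 60.0% to 66.7%.

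Spermatid genes recalled as dependent on CREM had 3 AP-1 probes on the first array, with a median of 0.90, and 7 on the second, with a median of -0.18, so the medians had opposite signs. Of the 10, 3 reached 1 and 1 was at -1 or less. By Odf1, a protein of the outer dense fibres of the sperm tail, the AP-1 probe had 2984 units of CREM and 987 units of IgG signal, a log2 ratio of 1.58, within a window at 1.73. The others past 1, by Tssk6 and Ace, had a channel not well above background. By Tnp1, a transition protein that replaces histones, the AP-1 probe was bright in both channels, at 14072 and 9304 units, and had 0.57. The probe at -1 or less lay by Pcyt1b on the second array, at -1.47, where 6.57% of all probes were at -1 or less. All probes of these genes, with or without the site, reached 1 in 25.3% and 17.9% of cases on the 2 arrays, so 3 of 10 AP-1 probes are read against those shares and not against 9.05% and 9.85%. Genes induced through cAMP in somatic cells had 9 AP-1 probes on the first array, with a median of 0.47, and 2 on the second, with a median of -0.50, again of opposite signs. Of these 11, 2 reached 1, by Rgs2 and Scg2, each with a dim channel. All probes of these genes reached 1 in 16.7% and 20.5% of cases.

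Markers of other testis cells gave few AP-1 probes. Sertoli cell markers had 9 over both arrays, with values from -0.77 to 0.65. Leydig cell markers had 1, macrophage markers 3 and peritubular and endothelial markers 3, and none of these 16 reached 1 or -1, which allows a share of up to 18.8%. All probes of Sertoli cell markers reached 1 in 4.81% and 4.70% of cases, and those of Leydig cell markers in 4.76% and 5.13%. For macrophage markers it was 3.57% and 5.81%, and for peritubular and endothelial markers 5.31% and 9.09%. Over all probes of the arrays, 6.47% and 6.57% were at -1 or less. No RNA was measured, so these lists describe the genes near the probes and not the makeup of the preparation. Over both arrays, AP-1 probes carried 1913 and 1865 of 9049 and 9131 gene names, and 182 and 189 of these had an AP-1 probe past 1. No like count of gene names was made for other probes. By probe, 8.31% and 9.16% of AP-1 probes were past 1, against 9.05% and 9.85% of all probes.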

How the data were processed

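The deposited scanner files hold, per the file headers, Agilent Feature Extraction 10.7.1.1 output for 1 promoter array each, with probe sequences and mm9 positions. Processed signals are intensities that, per the file headers, were background-subtracted and linearly dye-normalised; the deposited LogRatio is their log10 ratio and served as a check only. Spot flags (0 or 1) are also deposited there. A table of log2 ratios deposited by the authors has its normalization not given in the sources used here. In file order it matched a within-array loess of mean minus median background to within 5.00e-08, which gives scale and direction; its medians were -0.00096 and -0.0010. R 2.10.1 and limma are named per the submitters' processing notes.

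From the processed intensities, log2 of Cy5 (CREM) over Cy3 (IgG) was centred on each array's median. Control spots, 299 and 417 probes without a position, outlier spots and spots dim in both channels were left out. Comparison probes held neither motif and were matched in 4% GC bins and by CpG number (6 and more joined, at least 20 per class). Medians carry order-statistic and shares Wilson 95% intervals. Medians of matched probes are means of class medians, weighted by the motif probes in each class, unless called pooled. Their intervals cover the motif probes only. The share that a count of 0 is said to allow is 3 divided by the number of probes, not a Wilson limit. Windows were medians of 3 probes with starts at most 500 bp apart. With 1 hybridisation per array there was no test, and the number of arrays limits the precision. Python 3.11.15, numpy 2.4.6, pandas 2.3.3, scipy 1.17.1, R 4.3.3 and limma 3.58.1 were used, and the procedure was tested on simulated data; without a simulated shift, the interval of the first array excluded 0, so an interval that narrowly excludes 0 is not read as a shift. Symbols of 334 and 302 gene names were updated through RefSeq tables of assembly GRCm38.p6, without its coordinates.

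Members, gene lists and comparisons were chosen with earlier results of these data known. Named are, per array and among probes well above background in both channels, the 8 highest and 4 lowest, the 6 highest windows, and list genes at 1 or -1 (at most 4 per list and side). Nfe2l1, Tssk6, Ace, Rgs2 and Scg2, the 1-base change TGTGTCA, and the list genes between -1 and 1 were added with their values in view. Alternatives covered background correction, normalization, centring, GC trend, filters, matching, thresholds and window rules.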

Additional observations from a re-analysis of the deposited data

How the results depend on the processing

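The difference between AP-1 probes and their matched probes stayed small under the alternatives run. The difference in the share at 1 or more ranged from -1.10 to 0.371 percentage points on the first array and from -1.10 to 0.285 on the second over 15 alternatives each, and 14 of the 15 intervals took in 0 on each array. The exceptions were -1.10 (-1.97 to -0.028) with both channels well above background on the first and -0.943 (-1.69 to -0.030) with normexp on the second. The median difference ranged from -0.022 to 0.0070 and from -0.025 to 0.019 over 13 alternatives each; the value of -0.025 on the second array came with normexp background correction, against 0.0079. Intervals took in 0 in 11 and 13 of these, the exceptions on the first array being -0.0098 with normexp and -0.019 with matching on brightness. The difference in windows at 1 or more ranged from -0.238 to -0.132 and from -0.814 to -0.407 points, all intervals taking in 0.

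Counts depended on the processing far more than the comparison did. AP-1 probes at 1 or more numbered 34 and 82 with normexp, 75 and 64 with within-array loess, 77 and 67 with the authors' values, and 76 and 82 over probes well above background in both channels, centred anew on those probes, against 183 and 193. At a threshold of 1.5 there were 71 and 83, and at 0.5 there were 502 and 473. Probes at -1 or less numbered 0 and 11 with normexp (the 0 allows a share of up to 0.136%), 38 and 42 with loess and 37 and 41 with the authors' values, against 90 and 80. Windows at 1 or more numbered 18 and 49 with normexp, against 88 and 81. The share difference at -1 or less on the first array was -0.194 points with normexp, against 0.601. Its interval excluded 0 there, with the GC trend removed (0.839) and without a filter on dim probes (0.879), and on the second array with the GC trend removed (-1.06) and when matched without CpG number (-1.32); the remaining alternatives' intervals took in 0. The cause of these changes was not tested.

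Some alternatives were added after the data were seen. Among them the full CRE difference stayed positive, at 3.85 to 10.1 and 5.84 to 13.3 points, and the half-site difference at 0.442 to 1.54 and 1.05 to 1.28. The orientation difference on the first array was -0.293 points with normexp and 0.797 to 2.33 otherwise, against 2.76, and on the second 0.116 to 2.34, against 2.03. No paired analysis was possible because each array was hybridised once and the 2 arrays hold different probes; for the same reason no replicate could be left out. Ratios with a channel not well above background rest on a weak signal and are uncertain.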

Other observations

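AP-1 probes at -1 or less differed between the arrays in whether their windows followed. On the first array 20 of 77 such windows (26.0%) were also at -1 or less, and on the second 33 of 63 (52.4%). For probes at -1 or less that held neither motif it was 53.6% and 52.2%. The mean GC content of the AP-1 probes at -1 or less was 47.7% and 53.5%, against 56.1% and 55.0% in those without either motif. The 2 kinds were thus not of like GC content, most of all on the first array. Whether this difference in GC has a part in the window counts was not tested.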
